A study of Mus musculus with 22 samples.

Results

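The Reg genes encode small secreted C-type lectin-like proteins, first described in regenerating islets and in pancreatic juice. All 6 members examined here, Reg1, Reg2, Reg3a, Reg3b, Reg3d and Reg3g, were taken by gene symbol from a table of 56860 symbols. The rule uses no expression value, but the family was picked for description with earlier results of these data known. Polyadenylated RNA had been sequenced from the isolated islets of 22 male mice aged 5.5 weeks, 1 mouse per library. Mice were wild type (WT) or heterozygous (Het) for the S64F change in MAFA, a beta-cell transcription factor that drives insulin gene expression, and either on the background the labels call C57 or on one they call Mixed, whose strains the labels do not name. There were 5 WT and 6 Het mice on C57 and 5 WT and 6 Het mice on Mixed, hereafter named by background and genotype. The labels name no transgene promoter, Cre line or treatment in any group.

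In the healthy adult pancreas, Reg mRNA is made chiefly by acinar cells, the exocrine cells that secrete digestive enzymes, and islets isolated by digestion carry some of these cells along. Reg proteins are known to rise in acinar cells and in islets under inflammation, injury or diabetes, in part through the IL-6 and IL-22 receptors and STAT3. Reg1 and Reg2 have been studied as growth factors of islet cells, Reg3b and Reg3g are antibacterial lectins of the gut, Reg3b is also known as pancreatitis-associated protein, and Reg3d is related to the islet neogenesis-associated protein of the hamster. Levels are given in TPM, a unit of transcript abundance scaled to the same total in every library and already divided by transcript length, and differences on the log2(TPM + 1) scale, which understates the change of low genes.

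The deposited table holds TPM only, so sequencing depth is unknown and no counting interval was computed. Each library listed between 14808 and 16126 symbols at 1 TPM or more, no 2 libraries were identical, and the hormones and other islet markers summed to between 431770 and 519020 TPM of the 1000000 in each library. Mafa itself was lower in Het islets, from 441 ± 87.6 to 117 ± 23.2 TPM in C57 (SD, n = 5 and 6) and from 598 ± 143 to 152 ± 37.1 TPM in Mixed (SD, n = 5 and 6). Of the 16749 genes tested with limma, 69.5% of those called in C57 and 69.5% of those called in Mixed were higher in Het. With median-of-ratios scaling the shares were 53.5% and 48.9%, as the median change of all genes in Mixed moved from 0.10 to -0.01.

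The 6 genes lie side by side on mouse chromosome 6, in the order Reg3b, Reg3d, Reg3a, Reg2, Reg1 and Reg3g in RefSeq's annotation of GRCm38.p6, with 1 pseudogene between Reg1 and Reg3g. The mRNAs of Reg1 and Reg2 were 80.7% identical over 638 aligned bases, and those of Reg3a and Reg3b were 76.5% identical over 697 bases. The longest identical stretch shared by any pair was 35 bases, between Reg3b and Reg3g, against sequencing reads of 150 bases, but how the submitters treated reads that match several genes is not given in the sources used here. The promoters of the 4 most abundant members are shown because these genes varied together or apart between mice, as described further on. Each runs from 250 bases before to 50 bases after the start of the gene in RefSeq (GRCm38.p6), 5′ to 3′ on the gene's own strand, all 4 on the plus strand. The intervals are chr6:78425733-78426032 for Reg1, chr6:78404905-78405204 for Reg2, chr6:78380459-78380758 for Reg3a and chr6:78370635-78370934 for Reg3b. Capitals mark every match to CANNTG, the E-box read by helix-loop-helix factors such as the acinar regulator PTF1A, and to TTCNNNGAA, a STAT-type motif, and no 2 of these matches overlap.
Reg1: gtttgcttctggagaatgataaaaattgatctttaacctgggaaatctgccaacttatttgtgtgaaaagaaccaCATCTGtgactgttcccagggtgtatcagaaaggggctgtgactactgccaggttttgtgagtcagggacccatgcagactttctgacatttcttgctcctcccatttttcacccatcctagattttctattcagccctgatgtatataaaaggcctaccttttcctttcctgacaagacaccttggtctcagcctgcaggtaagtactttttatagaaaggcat
Reg2: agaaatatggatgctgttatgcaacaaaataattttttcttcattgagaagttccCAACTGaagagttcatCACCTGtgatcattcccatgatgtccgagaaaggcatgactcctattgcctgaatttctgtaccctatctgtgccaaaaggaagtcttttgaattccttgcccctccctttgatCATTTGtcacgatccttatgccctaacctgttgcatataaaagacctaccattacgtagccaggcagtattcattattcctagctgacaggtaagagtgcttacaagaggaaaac
Reg3a: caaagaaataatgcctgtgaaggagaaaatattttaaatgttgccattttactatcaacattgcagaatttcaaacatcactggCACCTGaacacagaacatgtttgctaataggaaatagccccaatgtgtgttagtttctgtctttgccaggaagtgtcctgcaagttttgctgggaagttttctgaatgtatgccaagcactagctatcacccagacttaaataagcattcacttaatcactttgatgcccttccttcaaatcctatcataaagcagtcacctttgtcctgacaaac
Reg3b: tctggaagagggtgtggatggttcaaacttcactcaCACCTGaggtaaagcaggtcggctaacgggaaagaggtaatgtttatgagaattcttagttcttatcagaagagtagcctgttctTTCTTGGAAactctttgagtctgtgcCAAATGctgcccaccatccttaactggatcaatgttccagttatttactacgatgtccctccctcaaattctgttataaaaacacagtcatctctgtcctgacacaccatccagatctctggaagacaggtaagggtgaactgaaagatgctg
The E-box motif was found in all 6 Reg promoters, as in 72.3% of the 32544 promoters of the same length in the table. A STAT-type match was found in Reg3b and in Reg3d, against 8.33% of all promoters, and in none of the other 4 windows. The E-box variant CACCTG, which was searched for after the sequences had been seen, was present in Reg2, Reg3a, Reg3b and Reg3d and not in the windows of Reg1 or Reg3g, against 20.3% of all promoters on either strand. TGCTGA, the core of a MAF recognition site, was found on the minus strand of the Reg3d and Reg3g windows and in none of the other 4, against 19.5% of all promoters. These are matches of letters, not measured binding.

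Reg1 was the most abundant member in 21 of 22 mice. In C57 WT islets its TPM values were 14.02, 24.3, 15.4, 11.7 and 25.4. In C57 Het islets the lowest was 10.02, the median 42.5 and the highest 94.6. Thus 4 of 6 C57 Het mice were above every C57 WT mouse and 1, C57 Het mouse 3, was below all of them. In Mixed WT islets Reg1 stood at 46.0, 26.2, 52.3, 8.42 and 32.1 TPM, and in Mixed Het islets at 18.3 (lowest), 33.2 (median) and 60.3 TPM (highest). The Mixed groups overlapped over most of their range.

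Reg2 was the second most abundant member in WT islets and split the Het mice into high and near-absent values. C57 WT mice had 8.43, 16.2, 13.0, 6.72 and 16.4 TPM. C57 Het mice had 14.7, 20.5, 0.109, 19.0, 53.9 and 55.0 TPM. Mouse 3 of this group therefore had almost no Reg2 mRNA, while 4 of the other 5 were above every C57 WT mouse. Mixed WT mice had 9.51, 9.67, 23.2, 2.699 and 10.1 TPM, and Mixed Het mice had 23.5, 46.8, 51.0, 0.636, 0.704 and 0.0459 TPM. All 6 Mixed Het mice lay outside the Mixed WT range, 3 above it and 3 below it. Over the whole series, Reg2 was under 1 TPM in 4 of 12 Het mice and in 0 of 10 WT mice. These mice are given singly and were not tested as a group, because the measurement itself picks them out.

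Reg3a and Reg3b were near 0 in the same mice. Reg3a was at 1.67, 3.81, 4.17, 2.49 and 5.31 TPM in C57 WT and at 1.91, 6.0, 0.0419, 4.03, 12.6 and 19.0 TPM in C57 Het islets. Its Mixed WT values were 2.12, 3.36, 5.14, 0.865 and 2.19 TPM, and its Mixed Het values 4.74, 14.1, 17.7, 0, 0.152 and 0 TPM. Reg3a was thus listed at 0 in 2 Mixed Het mice, and the 2 C57 Het and 2 Mixed Het mice with the most Reg2 also had the most Reg3a. Reg3b, the pancreatitis-associated protein, stood at 2.46, 2.65, 2.68, 2.51 and 5.94 TPM in C57 WT and at 2.91, 3.38, 0, 3.47, 12.6 and 17.0 TPM in C57 Het islets. In the Mixed background it stood at 2.57, 2.50, 7.49, 0.875 and 4.71 TPM in WT and at 7.2, 13.2, 24.1, 0.0758, 0.183 and 0.153 TPM in Het islets. The highest Reg3b level of the series and 3 of its 4 lowest were therefore all in Mixed Het mice.

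Reg3d and Reg3g were the low members of the family. Reg3d ranged from 0.305 to 1.72 TPM in C57 WT, from 0.0884 to 4.67 TPM in C57 Het, from 0.548 to 2.39 TPM in Mixed WT and from 0.268 to 3.05 TPM in Mixed Het islets. It reached 1 TPM in 13 of 22 mice, and mouse 3 of the C57 Het group again had the lowest value. Reg3g, the antibacterial lectin, reached 1 TPM in 1 of 22 mice, a Mixed Het mouse at 1.02 TPM that also had the most Reg3b, and was listed at 0 in 4 mice. It did not pass the filter of 1 TPM in at least 5 samples, so 5 of the 6 members were tested. Fitted without that filter, its differences between Het and WT were 0.07 ± 0.18 in C57 and 0.11 ± 0.18 in Mixed (SE, limma adjusted p = 0.906 and 0.750).

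**Figure D1:**
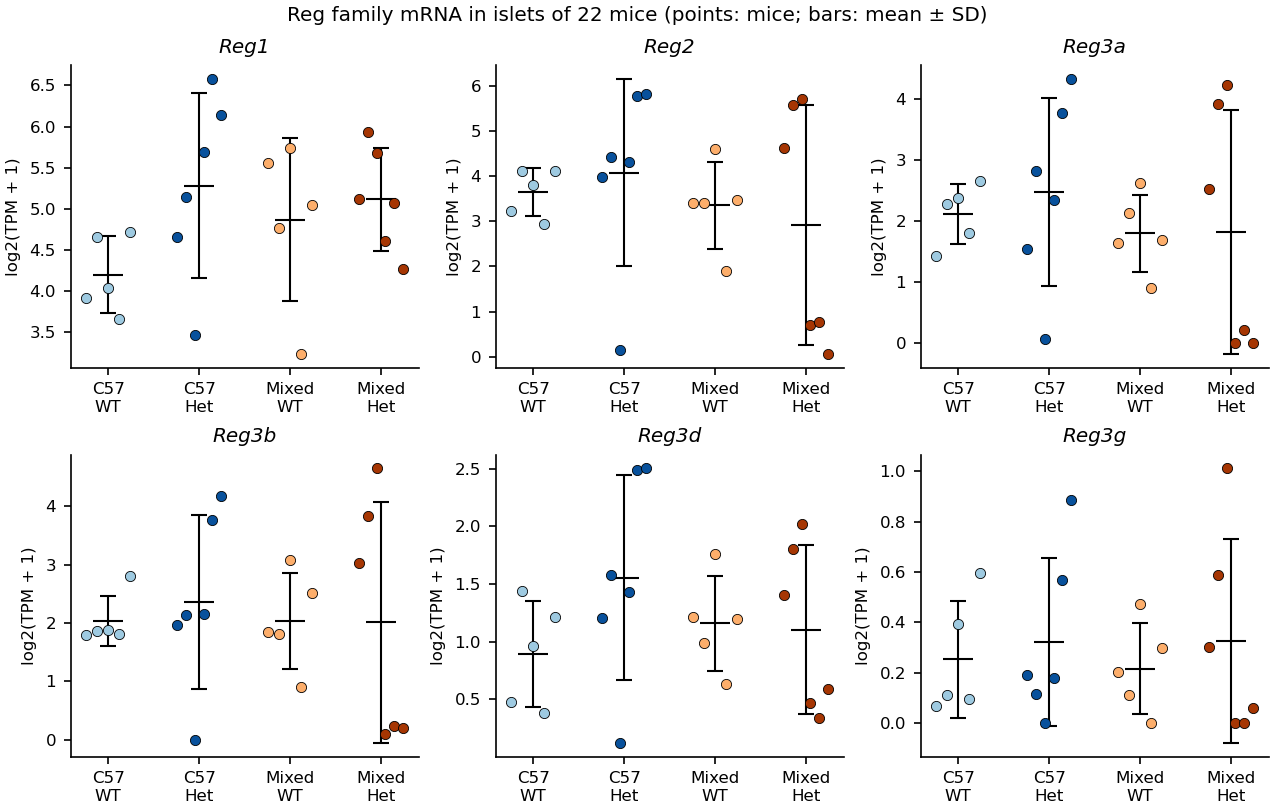
Level of each Reg gene, log2(TPM + 1) on the vertical axis (each panel has its own scale), in the 4 groups on the horizontal axis. Points are mice, and black bars give the mean ± SD. The C57 and Mixed Het groups hold both the highest and the lowest values of Reg2, Reg3a and Reg3b, with 1 C57 Het and 3 Mixed Het mice near 0.

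None of the 5 tested members passed an adjusted p of 0.05 between Het and WT islets, in C57 (0 of 5, where 38.0% of all genes tested were called) or in Mixed (0 of 5, where 44.1% of all genes were called). By limma without adjustment, 1 of 5 members was under 0.05 in C57, which was Reg1, and 0 of 5 in Mixed. The Reg1 difference in C57, Het minus WT, was 1.08 ± 0.47 (log2, SE, n = 5 and 6, limma adjusted p = 0.0745). Its two-sided exact permutation p over the 462 splits of these mice was 0.0887. In Mixed the Reg1 difference was 0.25 ± 0.47 (SE, limma adjusted p = 0.699), well within the spread between mice. Reg2 differed by 0.43 ± 1.02 in C57 and by -0.45 ± 1.02 in Mixed (SE, limma adjusted p = 0.771 and 0.749). Because Het mice of both backgrounds lay on both sides of the WT range for Reg2, these means describe few of the mice. Reg3a differed by 0.37 ± 0.76 in C57 and 0.02 ± 0.76 in Mixed, Reg3b by 0.34 ± 0.78 and -0.02 ± 0.78, and Reg3d by 0.66 ± 0.38 and -0.05 ± 0.38 (SE). Their limma adjusted p-values lay between 0.174 for Reg3d in C57 and 0.988 for Reg3b in Mixed.

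The C57 calls turned on single mice. Without C57 Het mouse 3, Reg1 rose in C57 Het islets by 1.44 (limma adjusted p = 0.0108) and Reg3d by 0.94 (limma adjusted p = 0.0330), so that 2 of 5 members rose where 38.2% of all genes were called in the same fit. Without Mixed WT mouse 4, which enters the C57 result through the shared estimate of spread alone, Reg1 kept its difference of 1.08 and passed (limma adjusted p = 0.045), 1 of 5 members beside 39.2% of all genes. With sample weights estimated by limma, Reg1 (1.48, adjusted p = 0.00791) and Reg3d (0.93, adjusted p = 0.0430) rose in C57 as well, 2 of 5 members beside 40.7% of all genes. Each of these shares of members is near or under that of all genes tested.

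The genotype difference itself was not shown to depend on background. For the interaction, 0 of 5 members passed by limma, 0 of 5 without adjustment, and 7.36% of all genes tested were called. The interaction estimates of the 5 members ran from -0.88 ± 1.44 for Reg2 to -0.35 ± 1.08 for Reg3a (SE). Mixed against C57 called 0 of 5 members among WT mice (background 11.3%) and 0 of 5 among Het mice (background 20.5%), and again none was under 0.05 without adjustment. Among WT mice the differences ran from -0.31 for Reg3a to 0.67 for Reg1, and among Het mice from -1.17 for Reg2 to -0.16 for Reg1. With sample weights, 2 of 5 members were lower in Mixed than in C57 Het islets, Reg2 by -2.26 (limma adjusted p = 0.0399) and Reg3d by -0.84 (limma adjusted p = 0.0495), in a fit that called 39.2% of all genes, so the share of members was close to that of all genes. These comparisons share groups with the genotype comparisons and are not independent of them.

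What set Reg2, Reg3a and Reg3b apart among all genes was their spread between mice of the same group. The pooled within-group SD of log2(TPM + 1) was 1.85 for Reg2, 1.41 for Reg3b and 1.38 for Reg3a, the ranks 10, 26 and 27 from the highest among 16749 genes, whose median SD was 0.20. Reg1 had an SD of 0.85 (rank 194) and Reg3d one of 0.67 (rank 528). For Reg2 the SD was 0.53 and 0.96 in C57 WT and Mixed WT islets and 2.07 and 2.66 in the corresponding Het groups. The 28 tested acinar markers had SDs from 0.30 to 1.65 with a median of 0.65, the highest being that of Try4, a trypsinogen that differed among Mixed mice. These ranks are a description over 22 mice, with no test.

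The balance between the Reg genes also shifted from mouse to mouse. Reg2 stood at between 0.576 and 0.848 of the Reg1 level in C57 WT mice and at between 0.207 and 0.444 in Mixed WT mice, a difference that was not tested. In C57 Het mice the ratio was 0.608, 0.596, 0.0109, 0.374, 0.570 and 0.791, and in Mixed Het mice 0.695, 0.776, 1.01, 0.0271, 0.0217 and 0.00251. In 3 Mixed Het mice Reg2 thus stood higher relative to Reg1 than in any Mixed WT mouse, and in the other 3 far lower. Reg1 made up 97.7% of all Reg TPM in C57 Het mouse 3 and 95.5%, 96.1% and 96.1% in Mixed Het mice 4 to 6, against 42.1% to 74.6% in the WT mice. Reg1, the neighbour of Reg2 in the cluster, was therefore nearly the only Reg message in these 4 mice.

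Acinar markers, the background of exocrine cells in an islet preparation, had a positive median change in Het islets on both backgrounds. Of 28 tested acinar genes, 20 rose and 0 fell in C57 (median change 1.13) and 12 rose and 0 fell in Mixed (median 0.88), while the medians of all genes were 0.08 and 0.10. The counts of this and the following lists stand beside the 38.0% of all genes called in C57 and the 44.1% called in Mixed, in both directions together. The Mixed acinar count of 12 of 28 was thus close to the share of all genes called. Cpa1, a carboxypeptidase, rose in C57 from 15.1 ± 4.63 to 47.1 ± 28.0 TPM (SD, n = 5 and 6, log2 change 1.42 ± 0.37 SE, limma adjusted p = 0.00533), and the chymotrypsinogen gene Ctrb1 rose by 1.31, Ctrl by 1.29 and the elastase gene Cela3b by 1.26. The Mixed difference of Cpa1 was 0.86 and did not pass (limma adjusted p = 0.0663). In Mixed, Zg16, a zymogen granule lectin, rose by 1.22, the colipase gene Clps by 1.201 and Cela3b by 1.09. The count in C57 was 13 without C57 Het mouse 5 and 23 without Mixed WT mouse 3. In Mixed it was 4 without Mixed WT mouse 4, the mouse with the lowest acinar sum, and 21 without Mixed WT mouse 3, and with median-of-ratios scaling 18 rose in C57 and 9 in Mixed. Summed over the 32 listed genes, acinar TPM ran from 425 to 671 in C57 WT, 517 to 2837 in C57 Het, 306 to 1395 in Mixed WT and 1139 to 1976 in Mixed Het islets. Of the defining markers, Cpa1, Cela1 and Prss2 were present, while Ptf1a was under 0.5 TPM in every library. In bulk RNA, more cells of a type and more RNA per cell cannot be told apart, and the part of these cells in the Reg values was not tested beyond the covariate fit given further on.

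Duct and immune markers moved too. Of 8 tested duct genes, 4 rose and 0 fell in C57 and 7 rose and 1 fell in Mixed, led by Spp1 (osteopontin, 1.67 and 2.06), Tspan8 (0.68 and 1.27) and Sox9 (0.59 and 1.08). Summed duct TPM ranged from 309 to 375 in C57 WT, 442 to 545 in C57 Het, 274 to 380 in Mixed WT and 452 to 852 in Mixed Het islets, with Cftr under 0.5 TPM in all WT libraries. Of 9 tested immune genes, 0 rose and 3 fell in C57, and 8 rose and 1 fell in Mixed, where Lyz2 (1.29), Itgax (1.202) and Cd68 (0.81), markers of macrophages and related cells, were higher and the B-cell gene Cd79a was lower by -1.43, as it was in C57 by -1.22. Summed immune TPM was 332 to 419 in C57 WT, 215 to 298 in C57 Het, 206 to 272 in Mixed WT and 299 to 598 in Mixed Het islets, with the T-cell gene Cd3e under 0.5 TPM throughout. The other non-endocrine lists were split: of 9 mesenchymal genes, 1 (Acta2, -0.93) fell in C57 and 6 rose in Mixed, among them Col1a1 (2.19) and Col3a1 (1.73), with summed mesenchymal TPM of 145 to 608 in Mixed Het against 148 to 226 in Mixed WT islets. Of 8 endothelial genes, 5 fell in C57 and 1 in Mixed, Esm1 in both (-1.06 and -0.87). Of 15 endocrine genes, 5 rose and 2 fell in C57 and 6 rose and 6 fell in Mixed, with Gcg, the glucagon gene, up by 1.37 and 2.18. The part of duct, immune and stromal cells in the Reg values was not tested beyond the covariate fits in the closing section.

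Reg1 followed the acinar markers closely, Reg2 and Reg3 genes less so. Over the 22 mice, Reg1 correlated with the acinar score, the mean log2(TPM + 1) of the 28 genes, at Pearson r = 0.92 and Spearman rho = 0.87, and at r = 0.87 without the 2 mice farthest from the median score. For Reg2, Reg3a and Reg3b the Pearson r values were 0.59, 0.57 and 0.58, and fell to 0.41, 0.43 and 0.44 without those 2 mice. Reg3d lay between, at 0.73 and 0.59. The r values over 22 mice include the 4 Het mice with Reg2 under 1 TPM, whose part in them was not tested. These values are descriptions, given without p, since all points share libraries. They leave out differences between the groups, whose means had been subtracted. Per 100 TPM of summed acinar markers, Reg1 stood at 3.24 ± 0.53 TPM in C57 WT, 3.07 ± 0.60 in C57 Het, 3.87 ± 0.69 in Mixed WT and 2.37 ± 0.67 in Mixed Het islets (SD, n = 5, 6, 5 and 6). The Mixed WT mice spanned 2.76 to 4.44 and the Mixed Het mice 1.33 to 3.05, so that 4 of 6 Mixed Het mice were below every Mixed WT mouse. Leaving Try4 out of the sum gave 4.004 ± 0.67 in Mixed WT and 2.51 ± 0.62 in Mixed Het islets (SD, n = 5 and 6).

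**Figure D2:**
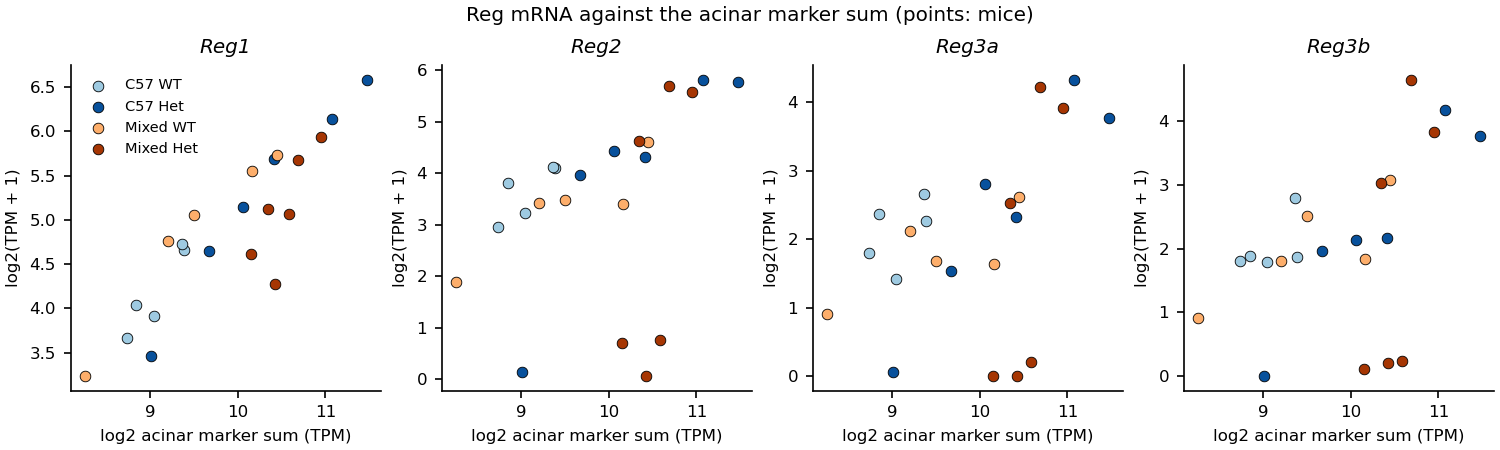
Level of Reg1, Reg2, Reg3a and Reg3b, log2(TPM + 1) on the vertical axis, against the log2 of the summed TPM of 32 acinar markers on the horizontal axis, with 1 point per mouse coloured by group. Reg1 rises with the acinar sum, whereas 4 Het mice lie near 0 for the other genes at acinar sums of 517 to 1535 TPM.

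When the limma fit was given the acinar score as covariate, the difference between Het and WT islets was negative for all 5 members on both backgrounds. In Mixed, Reg1 differed by -0.98 ± 0.23 and Reg3d by -0.83 ± 0.31 (log2, SE, limma adjusted p = 0.00278 and 0.0494), so that 2 of 5 members fell where 0 of 5 had passed without the covariate. The same fit called 31.2% of all genes, so the count of 2 of 5 is close to the background. The Reg1 call held in all 22 fits that left out 1 mouse each, with differences from -1.18 to -0.82 and limma adjusted p-values from 0.000532 to 0.00801. The Reg3d call held in 5 of those 22 fits, its limma adjusted p reaching 0.104 without C57 Het mouse 3. Reg2 differed in Mixed by -2.15 ± 0.99, Reg3a by -1.22 ± 0.75 and Reg3b by -1.31 ± 0.76, none of which passed (SE, limma adjusted p = 0.103, 0.226 and 0.199). In C57 the covariate turned all 5 differences from positive to negative, to -0.41 ± 0.24 for Reg1 and -1.64 ± 1.05 for Reg2 (SE, limma adjusted p = 0.240 and 0.279), and 0 of 5 passed beside 20.4% of all genes. The covariate was itself higher in Het mice, and the fit assumes 1 slope for all groups.

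**Figure D3:**
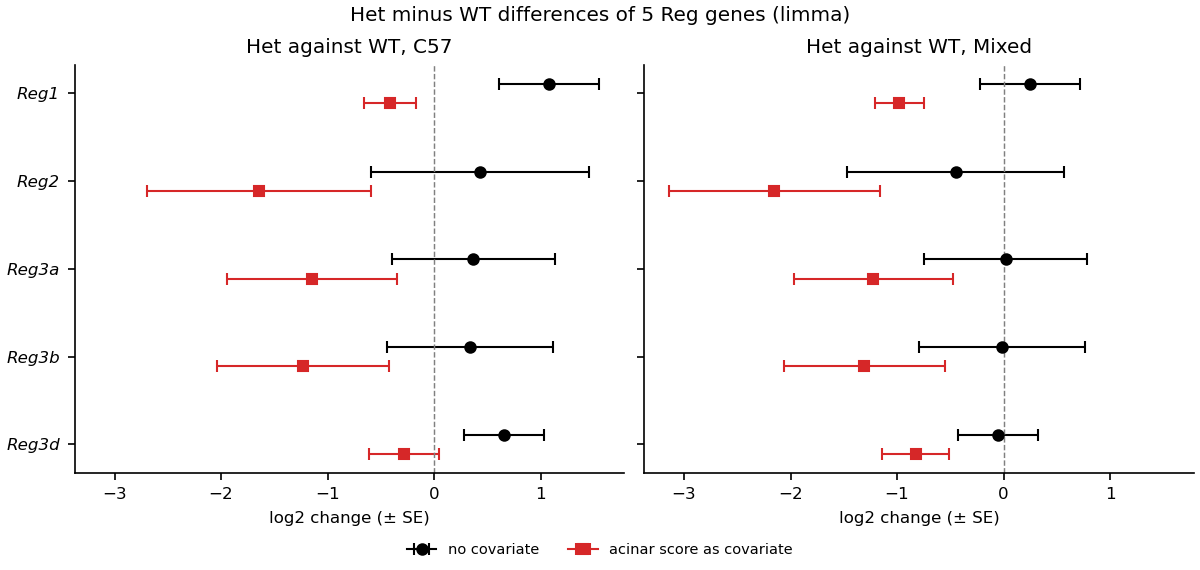
Difference between Het and WT islets for the 5 tested Reg genes, log2 change with its SE on the horizontal axis, in C57 (left) and Mixed (right). Black circles are fits with no covariate and red squares fits that include the acinar score. The red squares lie at or below -0.28 for all genes, and only those of Reg1 and Reg3d in Mixed passed an adjusted p of 0.05.

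In the mice with almost no Reg2, acinar markers had not gone with it. In Mixed Het mice 4, 5 and 6, 28, 28 and 27 of the 28 tested acinar genes were above the Mixed WT median and 0 were below the lowest Mixed WT mouse, while 4 of the 5 tested Reg genes were below the lowest Mixed WT mouse. Their acinar sums were 1139, 1535 and 1375 TPM, and their Reg1 levels 23.5, 32.5 and 18.3 TPM. C57 Het mouse 3 differed, in that its acinar sum of 517 TPM was within the C57 WT range. There 12 of 28 acinar genes were above the C57 WT median, 6 were below the lowest C57 WT mouse, and all 5 tested Reg genes were below it. Per 100 TPM of acinar markers, Reg2 stood at 0.0211 TPM in C57 Het mouse 3 and at 0.0559, 0.0459 and 0.00334 TPM in Mixed Het mice 4 to 6, against 0.827 to 2.84 TPM in the WT mice. Levels of Stat3 in these 4 mice were 37.6, 38.4, 39.8 and 38.0 TPM. The other Het mice spanned 35.4 to 50.2 TPM in C57 and 36.5 to 49.9 TPM in Mixed. Socs3, the feedback inhibitor of STAT3, stood at 212, 257, 209 and 254 TPM in the same 4 mice and is not given for the others. The library of C57 Het mouse 3 also listed the fewest symbols at 1 TPM or more, 14808, whereas Mixed Het mice 4 to 6 listed 15514, 15839 and 15479.

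**Figure D4:**
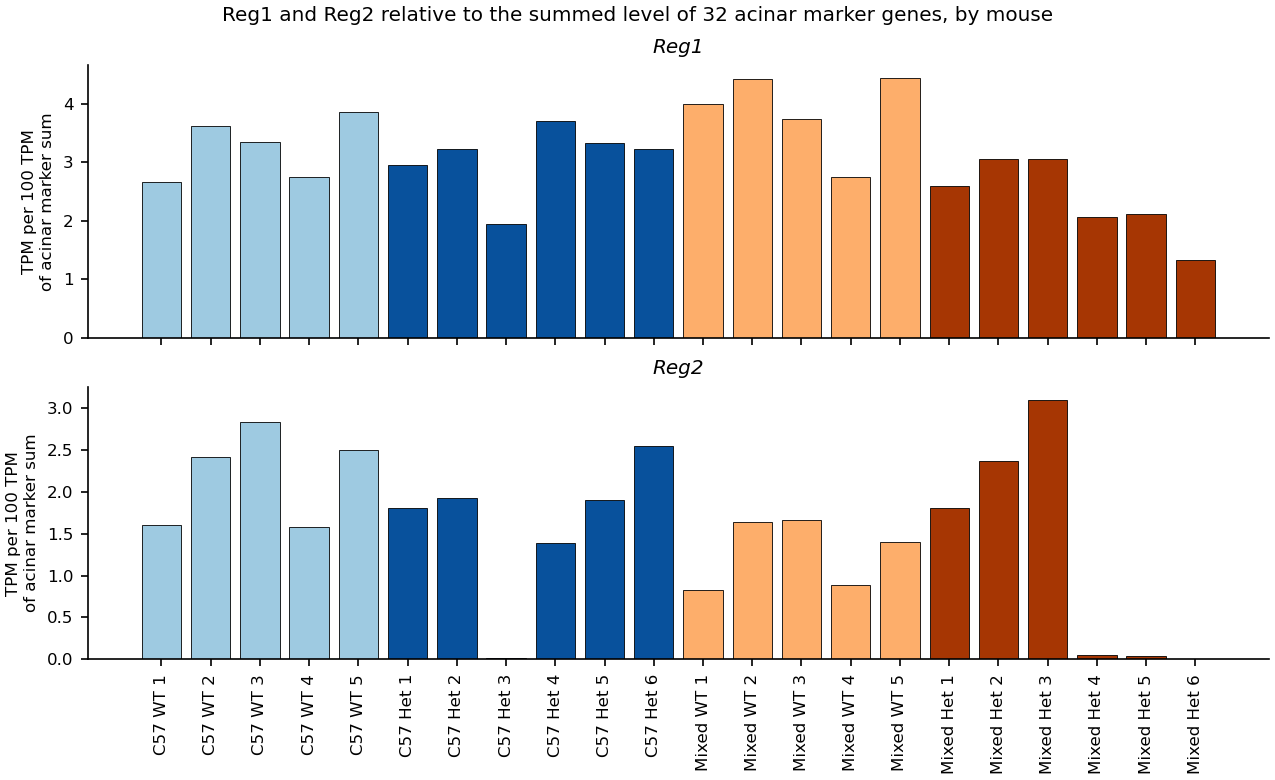
Reg1 (top) and Reg2 (bottom) in TPM per 100 TPM of the summed 32 acinar markers on the vertical axis, 1 bar per mouse on the horizontal axis, coloured by group. Reg2 is nearly absent in C57 Het mouse 3 and Mixed Het mice 4 to 6, where Reg1 stands at 1.33 to 2.12.

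**Figure D5:**
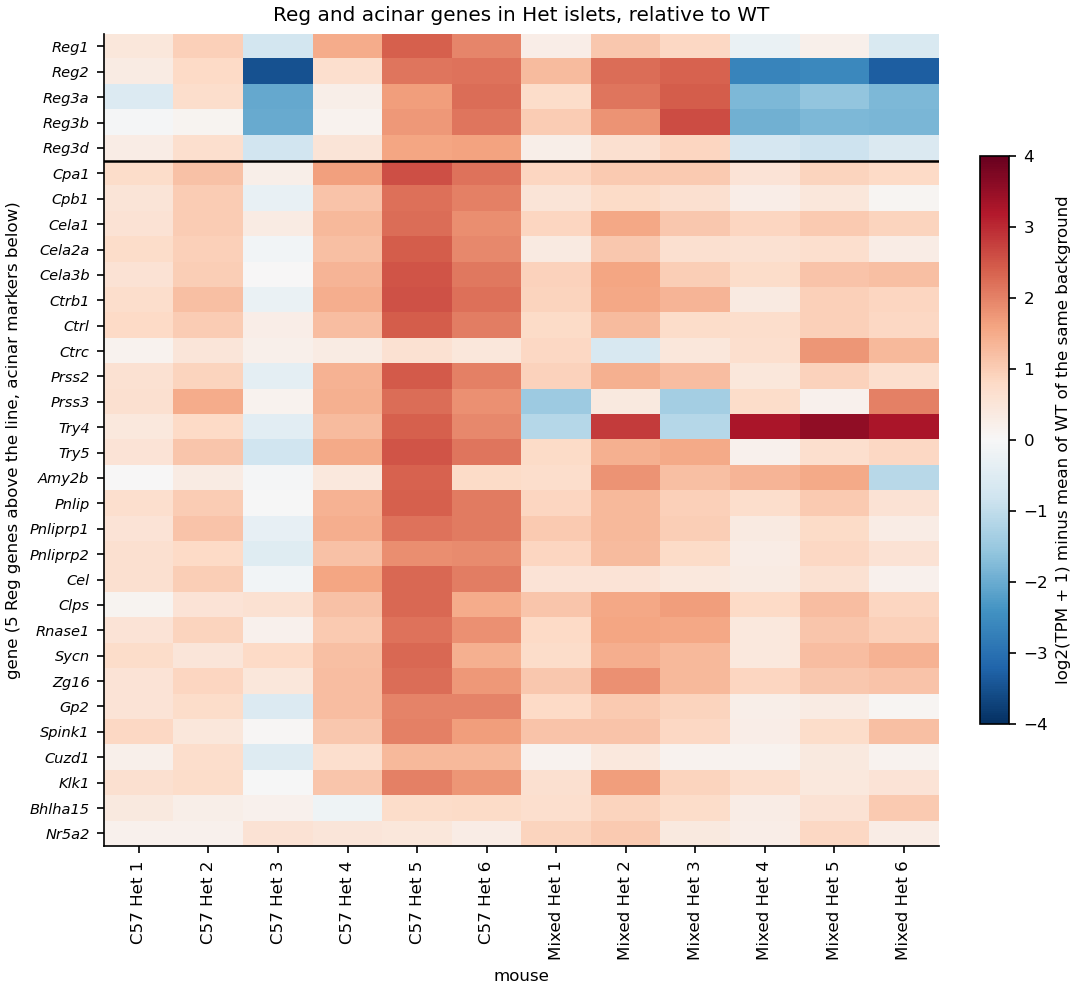
Level of 5 Reg genes (above the line) and 27 of the 28 tested acinar markers (below it) in each of the 12 Het mice, as log2(TPM + 1) minus the mean of the WT mice of the same background, red for higher and blue for lower. Reg2 is lower by -3.50 in C57 Het mouse 3 and by -2.64, -2.59 and -3.29 in Mixed Het mice 4 to 6, where most acinar markers are near or above the WT mean.

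Likeness between genes was measured as Pearson's r of group-centred log2(TPM + 1) over the 22 mice, with no p. Within the family, Reg2, Reg3a and Reg3b moved as one, with r of 0.96, 0.96 and 0.97 for their 3 pairs, and Reg3d followed them at 0.92 to 0.93. Reg1 was less like them, at 0.80 with Reg2, 0.78 with Reg3a, 0.77 with Reg3b and 0.87 with Reg3d. Outside the family, the genes most like Reg1 were the digestive enzyme genes Pnliprp1 (0.97), Ctrb1 (0.96), Prss2 (0.96), Cpb1 (0.95) and Pnlip (0.94). For each of the other 4 members the most like gene was Dmbt1, which encodes a mucosal defence glycoprotein, at 0.86 with Reg2, 0.86 with Reg3a, 0.87 with Reg3b and 0.90 with Reg3d. It was followed each time by Gp2, a zymogen granule membrane protein, at 0.77 to 0.86. Trypsinogen Try5 and Pnliprp1 were on all 4 lists, Ctrb1 was the remaining entry for Reg3a, Reg3b and Reg3d, and the phospholipase gene Pla2g1b (0.73) for Reg2. Dmbt1 itself did not drop to near 0. It ran from 0.999 to 7.70 TPM in C57 Het and from 1.47 to 6.31 TPM in Mixed Het islets. The WT groups ran from 1.02 to 1.88 TPM (C57) and from 0.851 to 6.68 TPM (Mixed). Dmbt1 was picked for its likeness to these Reg genes over the same mice, so what follows is no separate observation. Its lowest Het values were those of the mice with almost no Reg2. They were 0.999 TPM in C57 Het mouse 3 and 1.47, 1.62 and 1.75 TPM in Mixed Het mice 4 to 6. Per 100 TPM of acinar markers, Dmbt1 stood at 0.129, 0.106 and 0.127 TPM in Mixed Het mice 4 to 6. The other Mixed mice spanned 0.278 to 0.479. C57 Het mouse 3 stood at 0.193, against 0.190 to 0.357 in the other C57 mice.

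Of the genes around the Reg proteins, the receptor reported for them rose. Extl3, a glycosyltransferase-like membrane protein reported as the receptor of Reg proteins, went from 16.0 ± 2.40 to 21.6 ± 2.26 TPM in C57 and from 15.2 ± 2.29 to 20.8 ± 1.83 TPM in Mixed islets (SD, n = 5 and 6 each). In C57 the lowest Het mouse, at 17.98 TPM, barely exceeded the highest WT mouse, at 17.95 TPM. In Mixed these values were 19.9 and 17.1 TPM. How many of all genes separate the groups in this way was not counted. The changes were 0.42 and 0.43 (SE 0.10, limma adjusted p = 0.00351 and 0.00216), where 38.0% and 44.1% of all genes were called. With the 3 other scalings tried, Extl3 also rose, by 0.30 to 0.33 in C57 and by 0.30 to 0.33 in Mixed. Reg4, the remaining Reg gene of the mouse, was listed at 0.171 TPM at most and was not tested.

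Of 29 listed genes of the IL-6, IL-22 and STAT3 pathway, which can induce Reg genes, 20 passed the filter and were tested. The ligand genes Il6 and Il22 and the IL-22 receptor genes Il22ra1 and Il10rb were not among them. In C57, 3 of the 20 passed the test, where 38.0% of all genes were called. In Mixed, 9 of 20 passed, a share like the 44.1% of all genes. Of these, 2 rose and 1 fell in C57 and 2 rose and 7 fell in Mixed, with medians of -0.01 and -0.10 beside 0.08 and 0.10 for all genes. In C57, Il6st, the shared signalling receptor gp130, rose by 0.996 ± 0.16 (SE, limma adjusted p = 7.77e-05) and the kinase gene Jak1 by 0.49, while the inhibitor gene Socs2 fell by 0.47. In Mixed, Il6st went the other way and fell by 0.69 (limma adjusted p = 0.00142), a difference between backgrounds of -1.69 (interaction, limma adjusted p = 0.000367). The WT levels of Il6st were not alike, being higher in Mixed than in C57 by 2.06 (limma adjusted p = 5.98e-08). Among Het mice the same difference was 0.37 and did not pass (limma adjusted p = 0.0873). Stat3 itself fell by 0.59 in Mixed (limma adjusted p = 0.0107) and differed by 0.25 in C57, which did not pass (limma adjusted p = 0.279). Mixed against C57, Stat3 was higher by 0.80 among WT mice (limma adjusted p = 0.00717) and differed by -0.04 among Het mice (limma adjusted p = 0.907). Also in Mixed, the kinase gene Pim1, a STAT target, fell by 1.17, the inhibitor genes Cish and Socs2 fell by 0.80 and 0.78, and the cytokine gene Ctf1 rose by 0.82. With median-of-ratios scaling 1 rose and 10 fell in Mixed.

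Genes of epithelial inflammation and injury moved in both directions. Of 17 tested, 2 rose and 2 fell in C57 and 6 rose and 2 fell in Mixed. The chaperone gene Clu rose on both backgrounds, by 0.90 and 1.30, as did the stress gene Nupr1, by 0.81 and 0.72, and the keratin gene Krt17 rose by 1.39 in Mixed. The NF-kappaB inhibitor gene Nfkbia fell by 0.65 and 0.85, Ier3 by 0.55 in C57, and Tnfaip3 by 1.17 in Mixed. Among 7 tested antimicrobial genes, 2 rose and 1 fell in C57 and 5 rose and 1 fell in Mixed. Defb1, a beta-defensin, was the one that fell in each, from 103 ± 25.9 to 57.3 ± 11.2 TPM in C57 and from 111 ± 24.1 to 28.0 ± 10.6 TPM in Mixed (SD, n = 5 and 6 each, log2 changes -0.83 and -1.99, limma adjusted p = 0.00482 and 3.09e-07). Zg16 (1.18 and 1.22) and Ang (0.52 and 1.10), a ribonuclease gene, rose on both backgrounds and Lyz2 (1.29) in Mixed. Zg16 is also on the acinar list and Lyz2 on the immune list.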

How the data were processed

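The submitters describe poly(A)-selected RNA read as paired ends of 150 bases, per the labels' protocols. STAR 2.7.10b, MultiQC 1.7 and the build mm39 are named per the submitters' processing notes, and the counting tool and annotation are not given in the sources used here. The authors deposited 1 table of TPM with 57010 rows and 22 value columns, each summing to 1000000, and 0 value columns were left unused. For 147 symbols on more than 1 row the row with the highest mean was kept, and no Reg gene was among them. TPM keeps no depth, and a change in the very abundant hormone transcripts shifts all other values.

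Values were analysed as log2(TPM + 1). Genes at 1 TPM in at least 5 samples (16749) were fitted with limma 3.58.1 (R 4.3.3, lmFit, then eBayes with trend), with 4 group means in 1 model. The 5 contrasts were Het against WT in each background, their difference, and Mixed against C57 in each genotype, with Benjamini-Hochberg adjustment over all genes and a threshold of 0.05. Single genes were also compared by exact permutation over mice, two-sided. Replicate numbers follow accession order and only name mice. Library numbers run through the groups in order, so library order and group cannot be told apart. The fit was tested on simulated data. Promoters and gene order are RefSeq's on GRCm38.p6, matched by symbol for all 6 genes, and mRNAs are GENCODE M21's. No deposited coordinate was used.

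The Reg genes and the marker and pathway lists were chosen with earlier results of these data known. Named genes are the 6 Reg genes, Mafa, Reg4, Extl3, up to 4 genes per list and genotype contrast with the largest passing change, and the 5 genes most like each Reg gene. Single values of 2 listed marker genes are not reported here, though the list counts include them. The genes Stat3 and Socs3, named after their values were seen, and the lists' defining markers, are given beside these. Alternatives covered the pseudocount, filter, scaling, trend, sample weights, marker covariates, the samples fitted and each mouse left out. Fits with the acinar covariate without each mouse or without Try4, and list counts under other scalings, were added after the data were seen.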

Additional observations from a re-analysis of the deposited data

Results flagged for a closer look

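Among 24 groups of mice checked, 6 Reg genes in 4 groups each, 2 held a mouse far from the others, where chance alone flags about 1 group in 20. The first was Reg2 in C57 Het mouse 3, at 0.109 TPM the lowest of its group, whose gap to the next mouse was 0.675 of the whole range on the log2 scale. Reg3a, Reg3b and Reg3d were lowest in the same mouse, and its acinar sum of 517 TPM was the lowest of the C57 Het group. The second was Reg3b in C57 WT mouse 5, at 5.94 TPM the highest of its group, with a gap of 0.911 of the range. That mouse also had the highest Reg1, Reg2 and Reg3a of the C57 WT group, at 25.4, 16.4 and 5.31 TPM, and an acinar sum of 659 TPM.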

How the results depend on the processing

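Depth is unknown for every library, and no floor was set for values under 1 TPM, as for Reg3g. Of 290 refitted differences of single Reg genes under other settings, 266 kept their direction and 6 passed, and of 550 with 1 mouse left out, 512 and 3. No paired analysis was possible because the labels carry no replicate numbers. For each change of direction or call below, the cause was not tested.

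The number of Reg genes called moved from 0 to 2 with sample weights in C57 and in Mixed against C57 Het, and to 2 with the acinar covariate in Mixed, and leaving out 1 mouse gave 0 to 2 in C57. Of all genes, the covariates called 3422 (acinar) and 4053 (immune) in C57, 3468 (duct) and 4366 (immune) in Mixed, 565 (duct) and 2 (immune) for the interaction, 984 (immune) among WT mice and 1496 (duct) and 488 (immune) among Het mice, against 6361, 7393, 1233, 1891 and 3430. Sample weights called 2628 for the interaction and 6568 among Het mice, no filter 714 for the interaction, a mean TPM of at least 5 1251 among WT and 2223 among Het mice, and WT samples alone 831. Leaving out 1 mouse gave 771 to 1775 for the interaction.

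With the acinar covariate, C57 differences turned to -1.64 (Reg2), -0.41 (Reg1), -0.28 (Reg3d), -1.23 (Reg3b) and -1.14 (Reg3a), Mixed ones to -0.98 (Reg1) and -1.22 (Reg3a), and those between WT backgrounds to -0.13 (Reg3d) and -0.65 (Reg3b). The duct covariate turned Reg3d and Reg3b in Mixed to 0.21 and 0.33 and Reg1 between Het backgrounds to 0.0539, and the immune covariate Reg3d in Mixed to 0.0916 and the Reg3a interaction to 0.0135. With a pseudocount of 0.1, Reg3b turned to -0.0423 in C57 and to -0.0638 between WT backgrounds, and Reg3a to -1.02 in Mixed. Reg3a in Mixed turned to -0.0592, -0.0154 and -0.0484 and Reg3b between WT backgrounds to -0.0047, -0.0194 and -0.0339 with median-of-ratios, quantile and total scaling, and Reg3a in Mixed to -0.29 with sample weights.

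With 1 mouse left out, differences ran from -0.0242 to 0.81 (Reg3b) and -0.0015 to 0.85 (Reg3a) in C57. In Mixed they ran from -1.01 to 0.12 (Reg2), -0.16 to 0.46 (Reg1), -0.24 to 0.10 (Reg3d), -0.55 to 0.36 (Reg3b) and -0.46 to 0.38 (Reg3a). Interactions ran from -0.88 to 0.0251 (Reg3b) and -0.83 to 0.0221 (Reg3a), differences between WT backgrounds from -0.60 to 0.0769 (Reg2) and -0.26 to 0.28 (Reg3b), and between Het backgrounds from -0.53 to 0.10 (Reg1) and -0.88 to 0.0262 (Reg3b).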
